A study of Mus musculus with 8 samples.

Results

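The 5 genes Sult6b1, Leng8, Il4i1, Kifc2 and Vstm5 were examined out of 55291 gene symbols in each table of counts. They had been proposed from these same libraries as candidates whose mRNA shifted when GPATCH1 was degraded, so their values in GPATCH1-dTAG cells are given as a description, without a test. All 5 were found in all 8 libraries and passed the filter on low counts, as did 16371 genes in total. RNA was sequenced from mouse embryonic stem cells, labelled E14 (the growth protocol names R1 cells), in which DHX35 or GPATCH1 carried the dTAG degron, a tag through which the compound dTAG-13 directs a protein to degradation. Both lines were kept for 4 h in dTAG-13 at 200 nM or in DMSO, the solvent, which gave 4 groups of 2 libraries. Each line was grown from picked colonies after editing, the labels do not say which clone was sequenced, and no untagged cells were analysed here. Each contrast compares dTAG-13 with DMSO within 1 line, so the tagged gene is the same on both sides. Whether all libraries of a line came from the same clone is not stated in the labels. The labels do not state whether the 2 libraries of a group came from separate cultures, so the p-values below measure only the spread between these libraries.

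GPATCH1 is a G-patch protein, one of a family that recruits and stimulates RNA helicases. Together with the helicase DHX35 it has been linked to quality control of splicing, including that of introns with a poor 5′ splice site (5′ss). The spliceosome removes introns from pre-mRNA, and an intron that stays in often holds the RNA in the nucleus or leads to its decay, so that splicing can change the level of an mRNA as well as its sequence. The 5 genes belong to no common pathway. Sult6b1 encodes a member of the cytosolic sulfotransferases, which move sulfate from the donor PAPS onto small molecules. Leng8 encodes a nuclear protein. Il4i1 encodes a secreted L-amino acid oxidase that acts on aromatic amino acids and is best known from immune cells. Kifc2 encodes a kinesin with its motor at the C-terminal end, known from neurons. Vstm5 encodes a membrane protein with an immunoglobulin-like V-set domain.

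The study used these cells to ask about the choice of 5′ss when DHX35 or GPATCH1 is lost, so the 5′ss of these genes are shown first. In GENCODE M21 on GRCm38, the build of the authors' alignment, Sult6b1 (ENSMUSG00000038045.14) lies on the minus strand at chr17:78883938-78906992, and the other 4 genes lie on the plus strand. Leng8 (ENSMUSG00000035545.13) is at chr7:4137039-4148177, Il4i1 (ENSMUSG00000074141.13) at chr7:44816387-44840809, Kifc2 (ENSMUSG00000004187.11) at chr15:76659858-76668196 and Vstm5 (ENSMUSG00000031937.7) at chr9:15239045-15259416. Transcripts annotated as retaining an intron exist for 3 of the 5 genes, 3 for Leng8, 2 for Il4i1 and 2 for Kifc2. Of 12461 tested protein-coding genes with an intron, 7423 (59.6%) have such a transcript, a share close to the 3 of 5. Sult6b1 and Kifc2 each have 1 transcript annotated as a target of nonsense-mediated decay, which 28.9% of those genes also have. Vstm5 has a single annotated transcript with 3 introns.

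The 5′ss of each intron that lies whole inside an exon of a retained-intron transcript can be read from the transcript sequences. They are written 5′ to 3′ with 20 bases each, the last 6 of the exon and the first 14 of the intron. The capitals mark the first 6 intron bases, which pair with U1 snRNA and, only in part, later with U6 snRNA.
Leng8 intron chr7:4142639-4142833: ccgcagGTGACTgttaccct
Leng8 intron chr7:4144339-4144711: gtggctGTAAGTcccaggca
Leng8 intron chr7:4144814-4144894: ctgacaGTAAGGcagcgctg
Leng8 intron chr7:4145474-4146940: caaaacGTATGTggcactgc
Il4i1 intron chr7:44836317-44836503: ctgaagGTAGAGctacatgg
Il4i1 intron chr7:44837489-44837988: tcacagGTGAGGtcccacct
Kifc2 intron chr15:76662673-76662781: gtccagGTGGCCtagggaac
Kifc2 intron chr15:76666134-76666228: atggagGTAGGTtggagctc

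Each site was compared with the 9-base consensus CAGGTAAGT, of which the first 3 bases lie in the exon. The Leng8 sites, in the order above, matched 7, 6, 5 and 6 of the 9 bases, those of Il4i1 matched 5 and 7, and those of Kifc2 matched 5 and 7. The last of the Leng8 introns is also exonic in a protein-coding transcript of the gene. Over every intron that could be read from another transcript of the same gene, the mean was 5.71 matches in Leng8 (7 of 20 introns), 5.5 in Il4i1 (4 of 10) and 6.5 in Kifc2 (4 of 18). The mean was 6.10 over the 27728 introns read in this way from 9034 tested genes, 26.7% of which matched at most 5 bases. None of the 6 introns of Sult6b1 and the 3 of Vstm5 could be read. These counts say nothing of how often an intron was spliced, since the tables hold reads per gene and no splice junctions.

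Total counts ranged from 12014203 to 14994173 per library. Levels are given as CPM, the counts in each 1000000 of a library size scaled by the trimmed mean of M-values (TMM), because 2 genes, Gm23935 (annotated as a miRNA) and CT010467.1 (a ribosomal RNA), took between 1.27% and 20.9% of the counts. In GPATCH1-dTAG cells that share was 4.23% and 20.9% in DMSO and 1.27% and 2.02% in dTAG-13, and its part in the results below was not tested. One DMSO library of the DHX35-dTAG line, its replicate 1, deviated, with a mean correlation of 0.976 with the other libraries against 0.988 to 0.990 for the rest. Mitochondrial mRNA took 0.27% of its counts, against 0.76% to 1.13% in the rest. Small nuclear, nucleolar and Cajal body RNA genes took 0.187%, against 0.048% to 0.069%. Values for DHX35-dTAG cells are therefore also given without this library. Of 10 embryonic stem cell markers, the lowest value in any library was 179 CPM and their sum was 4500 to 5447 CPM, against 63.4 to 93.3 CPM for 19 markers of other cell types. In GPATCH1-dTAG cells the mRNA of Gpatch1 was at 7.13 ± 0.10 CPM in dTAG-13 and 7.10 ± 0.29 CPM in DMSO (SD, n = 2), a difference within the spread, and that of Dhx35 was 82.2 ± 3.7 against 76.3 ± 5.8 CPM in DHX35-dTAG cells. The lines differed in both mRNAs already in DMSO, since Gpatch1 was at 24.5 ± 1.6 CPM in DHX35-dTAG cells and Dhx35 at 58.3 ± 0.2 CPM in GPATCH1-dTAG cells, a comparison without a test. Neither mRNA reports on the loss of the protein, which dTAG-13 removes after translation.

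Sult6b1 was lower with dTAG-13 in GPATCH1-dTAG cells, with a fitted fold of 0.520. Its CPM were 18.3 and 21.2 in the DMSO libraries (283 and 240 counts) and 9.98 and 10.5 in the dTAG-13 libraries (161 and 146 counts). The groups did not overlap, and the DMSO libraries were the highest of all 8. The log2 fold change was -0.94 (standard error 0.14, n = 2 per group).

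Leng8, the most deeply counted of the 5, had 122 and 131 CPM in DMSO and 84.0 and 82.9 CPM in dTAG-13 in GPATCH1-dTAG cells. These values rest on 1890 and 1480 counts in DMSO and on 1356 and 1151 in dTAG-13, and the groups did not overlap. The log2 fold change was -0.60 (standard error 0.11), a fold of 0.660.

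Il4i1 was the 1 gene of the 5 that was higher with dTAG-13. In GPATCH1-dTAG cells its CPM were 6.28 and 6.72 in DMSO (97 and 76 counts) and 11.1 and 10.01 in dTAG-13 (179 and 139 counts). The DMSO libraries were the lowest of all 8 and the dTAG-13 libraries the highest. The log2 fold change was 0.70 (standard error 0.14), a fold of 1.63.

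Kifc2 had 4.85 and 5.57 CPM in DMSO and 2.54 and 2.52 CPM in dTAG-13 in GPATCH1-dTAG cells. Its counts were 75 and 63 against 41 and 35. The dTAG-13 libraries were the lowest of all 8. The log2 fold change of -1.03 (standard error 0.20), a fold of 0.489, was the lowest of the 5 values and rests on few counts, since the 95% exact Poisson interval was 24.4 to 48.7 for the 35 counts and 48.4 to 80.6 for the 63.

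Vstm5 had 6.92 and 6.37 CPM in DMSO and 3.22 and 3.67 CPM in dTAG-13 in GPATCH1-dTAG cells, from 107 and 72 counts against 52 and 51. The groups did not overlap. The log2 fold change was -0.95 (standard error 0.20), a fold of 0.517. The Poisson interval of the 72 counts was 56.3 to 90.7 and that of the 52 counts 38.8 to 68.2, and such intervals cover counting error only.

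**Figure D1:**
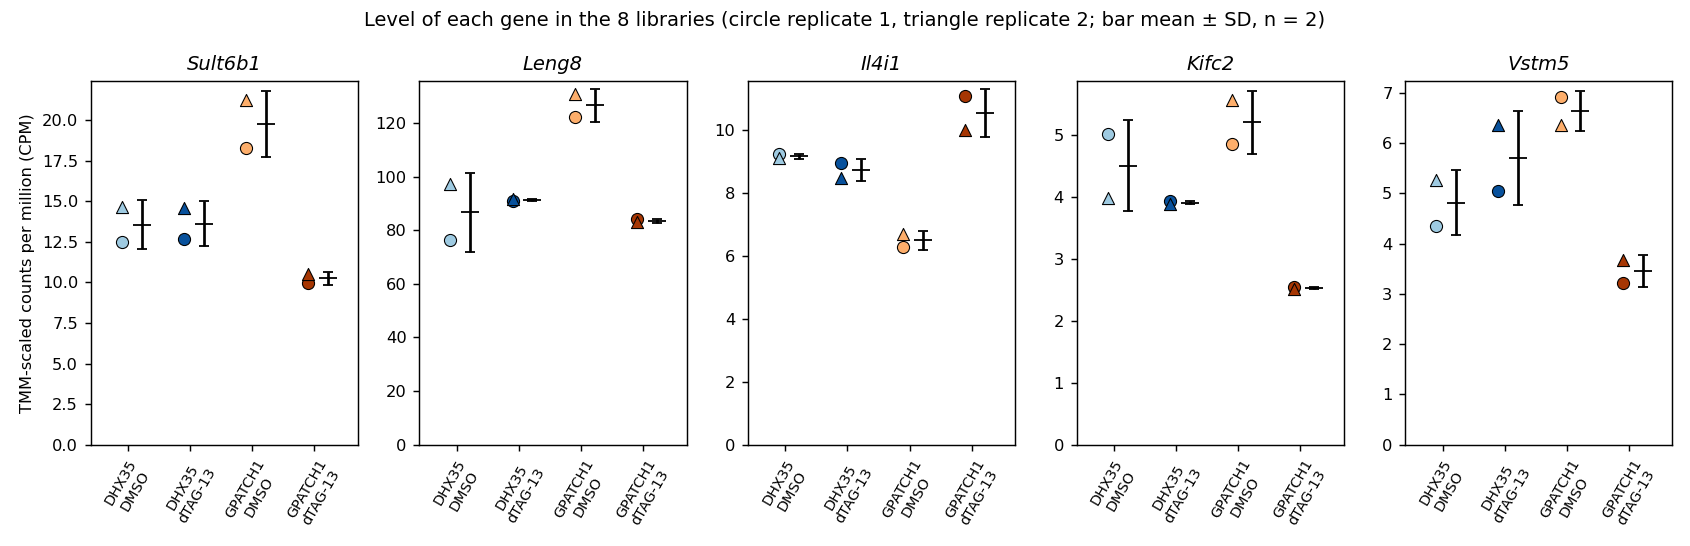
TMM-scaled CPM of each gene (linear axis from 0) in the 8 libraries by line and treatment, with replicate 1 as a circle, replicate 2 as a triangle and the mean ± SD (n = 2) beside them. In GPATCH1-dTAG cells Sult6b1, Leng8, Kifc2 and Vstm5 are lower and Il4i1 is higher in both dTAG-13 libraries than in both DMSO libraries.

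In GPATCH1-dTAG cells the groups thus did not overlap for 5 of 5 genes, 4 lower and 1 higher with dTAG-13, while 20.3% of all tested genes were lower and 21.5% higher without overlap. They did not overlap either in CPM of the plain totals, where for example Sult6b1 had 19.3 and 18.0 in DMSO and 10.7 and 11.1 in dTAG-13. Since the 5 genes were picked on this contrast, nothing is read from these counts. Over all tested genes, edgeR's quasi-likelihood test on the 8 libraries found 0 of 16371 (0%) with an adjusted p under 0.05 in GPATCH1-dTAG cells and 486 (2.97%) with an unadjusted p under 0.05. DESeq2 also called 0 genes, edgeR without a filter on low counts called 21 (0.0643%), limma-voom with sample quality weights 35 (0.214%) and edgeR with only the 4 libraries of the line 127 (0.803%).

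The genes were proposed for their shift in GPATCH1-dTAG cells, and the same compound was tested on them in DHX35-dTAG cells. Their values in DHX35-dTAG cells were also known when they were proposed, so these tests are not independent of the choice. None of the 5 genes passed the test. Of the 5, 0 had an adjusted p under 0.05 in edgeR's quasi-likelihood test, as did 0% of all genes, and 0 of the 5 had an unadjusted p under 0.05 against 5.39% of all genes. DESeq2 also called 0 of the 5, with 1 gene called in all (0.00611%), and so did edgeR with only the 4 libraries of that line (1 gene, 0.00636%). Without a filter on low counts edgeR called 0 of the 5 and 345 genes in all (1.06%). The median log2 fold change of the 5 genes was 0.0024, against -0.0077 for all tested genes, and 2 of the 5 were below 0.

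Sult6b1 had 12.5 and 14.7 CPM in DMSO and 12.7 and 14.6 CPM in dTAG-13 in DHX35-dTAG cells, and the groups overlapped. In CPM of the plain totals, Sult6b1 had 13.2 and 16.1 in DMSO and 12.3 and 12.5 in dTAG-13, lower without overlap. Its log2 fold change was 0.0024 (95% interval -0.32 to 0.33, adjusted p = 0.998, edgeR). Leng8 had 76.2 and 97.1 CPM in DMSO and 91.0 and 91.6 CPM in dTAG-13. Its DMSO libraries lay on either side of both dTAG-13 libraries, and its log2 fold change was 0.07 (95% interval -0.18 to 0.33, adjusted p = 0.845, edgeR).

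Il4i1 had 9.24 and 9.13 CPM in DMSO and 8.98 and 8.49 CPM in dTAG-13 in DHX35-dTAG cells. Both dTAG-13 libraries were lower, opposite to GPATCH1-dTAG cells, but by a log2 fold change of only -0.07 (95% interval -0.39 to 0.24, adjusted p = 0.880, edgeR). Kifc2 had 5.03 and 3.99 CPM in DMSO and 3.93 and 3.89 CPM in dTAG-13. Its dTAG-13 libraries were also lower than both in DMSO, with a log2 fold change of -0.20 (95% interval -0.65 to 0.26, adjusted p = 0.767, edgeR). Such a lack of overlap in TMM-scaled CPM, lower with dTAG-13, held for 2 of the 5 genes and for 14.1% of all genes. Vstm5 had 4.36 and 5.27 CPM in DMSO and 5.04 and 6.37 CPM in dTAG-13, which overlapped. Its log2 fold change was 0.24 (95% interval -0.21 to 0.68, adjusted p = 0.733, edgeR).

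When the deviating DMSO library was left out, the log2 fold changes in DHX35-dTAG cells were -0.11 for Sult6b1, -0.09 for Leng8, -0.06 for Il4i1, -0.03 for Kifc2 and 0.11 for Vstm5, and none passed the threshold in edgeR's test (the lowest adjusted p was 0.991). Over the 4 fits that each left out 1 library, Kifc2 ranged from -0.35 to -0.03, with the former without DMSO replicate 2 and the latter without DMSO replicate 1, and Vstm5 from 0.07 to 0.40, with signs kept and no call. Without replicate 2 of that group, so that the deviating library alone stood for DMSO, Leng8 had a log2 fold change of 0.27. Leng8 passed the threshold in that fit, as did many other genes. Nothing is read from this, since 1 library stood for the group. Gm23935 and CT010467.1 took 3.15% and 1.54% of the counts in DMSO and 11.98% and 20.2% in dTAG-13 in these cells. Their part was not tested.

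**Figure D2:**
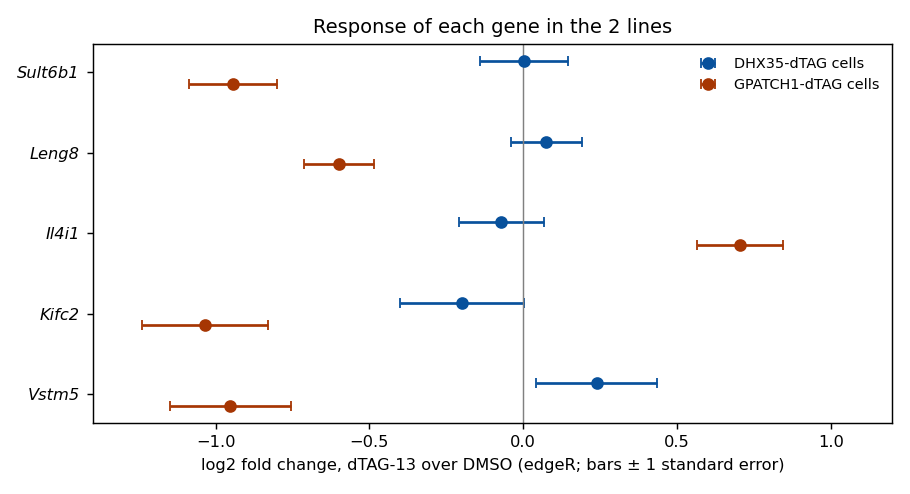
Log2 fold change of dTAG-13 over DMSO for each gene, with DHX35-dTAG cells in blue and GPATCH1-dTAG cells in brown, from edgeR with ± 1 standard error. The blue values lie between -0.20 and 0.24 and the brown ones between -1.03 and 0.70.

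The log2 fold change in GPATCH1-dTAG cells minus that in DHX35-dTAG cells was -0.95 for Sult6b1, -0.68 for Leng8, 0.78 for Il4i1, -0.83 for Kifc2 and -1.19 for Vstm5. This difference was not tested, because the genes were picked for the first of the values that enter it, and the second was known at that choice.

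The levels of the 4 groups were also set in order, across lines that differ in the tagged gene. For 5 of the 5 genes, the means of both DHX35-dTAG groups lay between those of the GPATCH1-dTAG groups. The same held for 1367 of the 16371 tested genes (8.35%), and for 208 of the 486 (42.8%) with an unadjusted p under 0.05 in GPATCH1-dTAG cells. The GPATCH1-dTAG means chose the 5 genes, and their DHX35-dTAG values were also known at that choice. Their count is therefore a description, and nothing is read from its distance to these shares. For Sult6b1 the order was 19.8 ± 2.1 CPM (SD, n = 2) in GPATCH1-dTAG cells in DMSO, 13.6 ± 1.4 in DHX35-dTAG cells in dTAG-13, 13.6 ± 1.5 in DHX35-dTAG cells in DMSO and 10.2 ± 0.4 in GPATCH1-dTAG cells in dTAG-13. Only the 2 groups of DHX35-dTAG cells overlapped. For Leng8 the means were 127 ± 6, 91.3 ± 0.4, 86.7 ± 14.8 and 83.5 ± 0.8 CPM in the same order of groups, and the last group lay within the range of the DHX35-dTAG DMSO libraries. The DMSO libraries of GPATCH1-dTAG cells were thus the ones set apart in Leng8. For Il4i1 they were also the ones farther from DHX35-dTAG cells, at 6.50 ± 0.31 CPM, while DHX35-dTAG cells had 9.18 ± 0.08 in DMSO and 8.73 ± 0.34 in dTAG-13. The dTAG-13 group of GPATCH1-dTAG cells had 10.6 ± 0.8 CPM. For Kifc2 it was the dTAG-13 group of GPATCH1-dTAG cells that lay farther off, at 2.53 ± 0.01 CPM, below 3.91 ± 0.03 and 4.51 ± 0.74 in DHX35-dTAG cells, while 5.21 ± 0.51 in DMSO overlapped the DHX35-dTAG DMSO libraries. For Vstm5 the means were 6.64 ± 0.40 CPM in GPATCH1-dTAG cells in DMSO, then 3.45 ± 0.32 in dTAG-13, and DHX35-dTAG cells had 5.71 ± 0.94 in dTAG-13 and 4.82 ± 0.64 in DMSO. The DHX35-dTAG groups overlapped each other, the higher of them reached 6.37 CPM as did the lower library of GPATCH1-dTAG cells in DMSO, and the dTAG-13 group of GPATCH1-dTAG cells lay below all others.

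The counting program and its strand setting are not given in the sources used here, so reads from overlapping genes on opposite strands may have been mixed. Il4i1 is the gene most exposed to this, because Tbc1d17 on the opposite strand shares 3423 of its 4080 exon bases. It also shares 82 exon bases with Atf5 on the opposite strand and 97 with Nup62 on its own strand. In GPATCH1-dTAG cells the log2 fold changes of these genes were 0.03 for Tbc1d17, -0.10 for Atf5 and 0.05 for Nup62, against 0.70 for Il4i1. Tbc1d17 had 25.5 ± 1.8 CPM in DMSO and 26.0 ± 1.9 CPM in dTAG-13 (SD, n = 2). How the reads in the shared exon bases were assigned was not tested.

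Kifc2 shares 163 exon bases with Cyhr1 on the opposite strand, which had a log2 fold change of -0.0013 in GPATCH1-dTAG cells. Foxh1, on the opposite strand with its 3′ end 29 bases past that of Kifc2, had -0.14. Leng8 shares 263 exon bases with Leng9, which had at most 1.62 CPM in any library and a log2 fold change of 0.14. Vstm5 overlaps no annotated gene, and Med17, 935 bases away, had -0.06. Sult6b1 shares 86 exon bases with the long non-coding RNA gene Gm26637, which was not analysed here. The coding gene nearest to Sult6b1, Eif2ak2, which encodes the double-stranded RNA sensor PKR and lies 1365 bases away on the same strand, had the lowest value of all these neighbours. Its level was 61.2 ± 1.2 CPM in DMSO and 48.6 ± 2.1 CPM in dTAG-13 in GPATCH1-dTAG cells (log2 fold change -0.33, standard error 0.12), against 49.4 ± 9.3 and 48.7 ± 1.1 CPM in DHX35-dTAG cells. None of the tested neighbours passed the threshold in either line (edgeR).

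Genes related by function to 4 of the 5 were listed next. Of the sulfotransferases and the enzymes that make PAPS, 5 others were tested, and they ranged from -0.43 to 0.17 on the log2 scale in GPATCH1-dTAG cells and from -0.23 to 0.89 in DHX35-dTAG cells. The values -0.43 and 0.89 were both those of Sult2b1, which had no more than 1.59 CPM in any library. Sult4a1, the one of these 5 with the highest CPM (13.3 to 19.9), had 0.17 in GPATCH1-dTAG cells. Of the amino acid oxidases, the kynurenine route and the aryl hydrocarbon receptor genes, which sense products of the IL4I1 reaction, 7 were tested with values from -0.45 to 0.06 in GPATCH1-dTAG cells and from -0.62 to 0.79 in DHX35-dTAG cells. The values -0.45 and -0.62 were both those of Ido2, which had no more than 1.93 CPM in any library. The receptor gene Ahr had -0.05 in GPATCH1-dTAG cells and 0.12 in DHX35-dTAG cells. Its target Tiparp had -0.10 and 0.25, and its target Cyp1a1, at no more than 1.49 CPM in any library, had -0.36 and 0.79. The other C-terminal motor kinesins, Kifc1, Kifc3 and Kifc5b, had 0.04, 0.20 and 0.20 in GPATCH1-dTAG cells, where Kifc2 had -1.03. In DHX35-dTAG cells they had -0.26, -0.13 and -0.33, and Kifc2 had -0.20. No relative of Vstm5 passed the filter on low counts. In these lists 0 genes passed the threshold in either direction, whichever the line (edgeR).

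Of 17 genes known for regulated retained introns, among them the Clk kinases and several Srsf factors, 0 passed the threshold in either line (edgeR). Their median log2 fold change was -0.04 in GPATCH1-dTAG cells and -0.08 in DHX35-dTAG cells, against 0.0029 and -0.0077 for all tested genes. The lowest of them in GPATCH1-dTAG cells was Mat2a, which makes the methyl donor S-adenosylmethionine and whose retained intron responds to methionine. It had 525 ± 0.4 CPM in DMSO and 419 ± 14 CPM in dTAG-13 (log2 fold change -0.32, standard error 0.08), and 484 ± 22 and 483 ± 3 CPM in DHX35-dTAG cells.

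Mat2a was also among the 3 genes most like Sult6b1 and among the 3 most like Vstm5 over the 8 libraries, by Pearson's r of log2 CPM across 14605 genes (r = 0.94 and 0.95). The other genes most like Sult6b1 were Snrnp48, which encodes a protein of the minor spliceosome (r = 0.95), and Gm128 (r = 0.94). Those most like Leng8 were Cd80, Zfp329 and Gm43681 (r = 0.96, 0.96 and 0.95). Morn2, Tatdn2 and Mtmr4 were most like Il4i1, with r = 0.92, 0.91 and 0.89. Rnu2-10, Zkscan2 and Scn2b were most like Kifc2 (r = 0.97, 0.95 and 0.95), and Phtf1os and Gps2 followed Vstm5 (r = 0.95 and 0.94). Among the 5 genes themselves, r ranged from 0.57 for Leng8 and Kifc2 to 0.91 for Sult6b1 and Leng8 in the 4 that were lower, and Il4i1 ran opposite to each of them (r from -0.94 to -0.79). All of these values share the same 8 libraries, and the genes were picked for a difference within 4 of them.

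The log2 fold changes in GPATCH1-dTAG cells moved little with the way the counts were processed. Over 8 other settings they stayed between -0.95 and -0.93 for Sult6b1, -0.61 and -0.59 for Leng8, 0.70 and 0.72 for Il4i1, -1.04 and -1.01 for Kifc2, and -0.96 and -0.94 for Vstm5. With each library left out in turn, Kifc2 ranged from -1.13 to -0.94 and Leng8 from -0.65 to -0.56. All these fits reuse the counts on which the genes were picked, so they show only how processing moved the values.

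**Figure D3:**
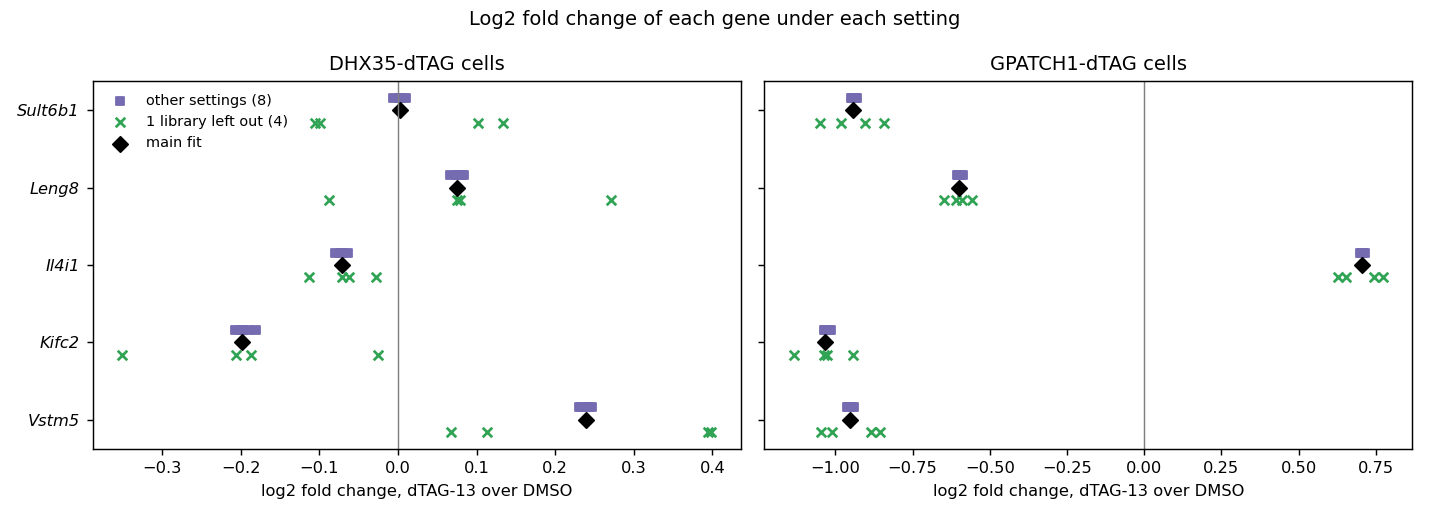
Log2 fold change of dTAG-13 over DMSO for each gene in both lines (the 2 panels have different horizontal scales), from the fit reported here (diamond), 8 other settings (squares) and the 4 fits with 1 library left out (crosses). In GPATCH1-dTAG cells, on which the genes were picked and where their groups did not overlap, no setting changes a sign. In DHX35-dTAG cells Sult6b1 and Leng8, whose groups overlapped in TMM-scaled CPM, fall on both sides of 0.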

How the data were processed

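Per the labels and the study's methods, the authors removed ribosomal RNA, added human DLD-1 RNA as a spike-in, made stranded libraries, trimmed reads with Trim Galore 0.6.6 and aligned them with STAR 2.7.5c to mm10 and hg19. The authors deposited raw counts per gene symbol, 1 table per library. The counting program, annotation and strand setting are not given in the sources used here, and the spike-in was not used here.

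The test was edgeR's quasi-likelihood F test (version 4.0.16, R 4.3.3, TMM, filterByExpr on the 4 groups, 1 term per group, all 8 libraries, Benjamini-Hochberg over 16371 genes, threshold 0.05). Standard errors are |log2 fold change| / √F. Log2 CPM used a prior count of 2. The analysis was tested on simulated data, where it recovered most but not all of the changed genes and also called some unchanged ones. The members, lists and tests were chosen with earlier results of these data known. Named were the 5 genes, both tagged genes, overlapping genes and the nearest coding genes, listed relatives (those of Leng8 are not reported here), and the 3 genes most correlated with each member among those with a mean of at least 1 CPM. Of 55291 symbols, 53186 matched exactly 1 gene in GENCODE M21. The libraries of a group were no duplicates (chi-square per gene 5.32 to 132, against 1 for sampling noise). Alternatives were DESeq2 1.42.0, its size factors, other filters, a replicate block, only 1 line, limma-voom (limma 3.58.1) with sample quality weights, leaving out the 2 most counted genes, and each library left out.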

Additional observations from a re-analysis of the deposited data

Results flagged for a closer look

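Il4i1 is named here because both dTAG-13 libraries lay below both DMSO libraries in DHX35-dTAG cells and above both in GPATCH1-dTAG cells. Of all tested genes, 14.1% lay lower without overlap in DHX35-dTAG cells and 21.5% higher in GPATCH1-dTAG cells. The log2 fold change of Il4i1 in GPATCH1-dTAG cells minus that in DHX35-dTAG cells was 0.78. This difference was not tested, since the gene was picked for its value in GPATCH1-dTAG cells with the other value known. Its fall of 0.07 on the log2 scale in DHX35-dTAG cells had an adjusted p of 0.880 in edgeR's test. Sult6b1, Leng8 and Vstm5 also had opposite signs in the lines, and Vstm5 had the larger difference, -1.19. No group had the 4 samples that a check within it for a single deviating library needs. The deviating DMSO library was marked by its correlation with all other libraries.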

How the results depend on the processing

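In GPATCH1-dTAG cells the sign of all 5 genes held under the 8 other settings and in the 4 fits that left out 1 library. The genes were picked on this contrast and their groups did not overlap there, so these fits could hardly change a sign. Il4i1 ranged from 0.63 to 0.77 over the fits with 1 library left out, more than its spread between replicates. The number of genes called there rose from 0 to 21 without an expression filter, 35 with limma-voom and sample quality weights and 127 with only the 4 libraries of the line, and was 0 to 1 with a library left out. In DHX35-dTAG cells it rose from 0 to 1 with DESeq2, 345 without a filter and 1 with only the 4 libraries of the line. It was 0 to 4949 with a library left out, the most without DMSO replicate 2. There Sult6b1 had -0.0064 when genes under 10 counts in any library were dropped. It ranged from -0.11 to 0.13 with a library left out, while Leng8 ranged from -0.087 (without DMSO replicate 1) to 0.27 (without DMSO replicate 2). Kifc2 ranged from -0.35 to -0.03, Vstm5 from 0.07 to 0.40 and Il4i1 from -0.11 to -0.03. Where a fit left 1 library in a group, that library was assumed to vary like the others. The cause of these changes was not tested.

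Replicate numbers were not used as pairs in the main fit. The correlations of the replicate differences between groups were 0.037 to 0.23, which does not settle whether the samples were paired. The replicate block raised the genes with an unadjusted p under 0.05 in edgeR's test from 882 to 1323 in DHX35-dTAG cells and from 486 to 582 in GPATCH1-dTAG cells. With the replicate block, 0 genes were called in either line, Sult6b1 had -0.94, Leng8 -0.60, Il4i1 0.70, Kifc2 -1.03 and Vstm5 -0.96 in GPATCH1-dTAG cells, and no call changed. Counts of 35 to 107 for Kifc2 and Vstm5 limit the precision of their values.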
